A study of Drosophila melanogaster with 4 samples.

Results

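The genes described here encode nuclear subunits of respiratory complexes III, IV and V, measured in the larval fat body of Drosophila melanogaster. They were chosen by gene symbol alone, from the names COX4 to COX8, UQCR-, ATPsyn, RFeSP and Cyt-c1 with their variants, among array rows that carry a single gene symbol. The rule found 38 of 13402 genes, 9 of complex III, 14 of complex IV and 15 of complex V. Of these, 24 are called canonical subunits here. The other 14 have a symbol that ends in L or in L and a digit, which marks them as copies of a canonical gene, and are called paralogs. The rule reads no expression value, but it was set with earlier results of these data known. Each of the 38 had 1 row of its own.

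One group of larvae had eaten a semi-purified diet with added palm fruit juice (PFJ), a phenolic-rich by-product of oil palm milling, and the control group had eaten the diet without it. Both groups were of strain w1118, a white-eyed laboratory stock, and had fed from the egg stage for 5 days. By the labels, 4 ml of PFJ brought the phenolic content, counted as gallic acid, to 19000 mg in each kg of diet. The labels also give 0.86 mg in each kcal. Both label values are given as they stand and are not taken as equal doses. Each diet had 2 arrays, each with total RNA pooled from the fat bodies of 10 larvae, and the labels used here give no sex. Nothing in the labels says that the pools came from separate cultures, so p-values measure the spread between these arrays, which may be technical.

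Complex III takes electrons from ubiquinol and hands them to cytochrome c, and complex IV passes them on to oxygen. Both pump protons across the inner mitochondrial membrane, and complex V, the ATP synthase, lets the protons flow back and makes ATP. Most subunits are encoded in the nucleus, while a few core ones are encoded in the mitochondrial genome and are not analysed here. In Drosophila, several nuclear subunits have a duplicate gene whose transcript is found mainly in the testis, and the larval gonads lie embedded in the fat body. The fat body itself stores fat and glycogen and secretes most hemolymph proteins.

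All values are RMA log2 intensities, so a difference of 1 is 2-fold. They compare arrays for 1 gene and do not rank genes by abundance. Over all genes, themselves no replicates, the PFJ arrays correlated at r = 0.961 and the control arrays at r = 0.910, and control replicate 2 stood furthest from the rest. The 13 measured fat body markers, of 21 listed, averaged 8.06 and 8.48 on the PFJ arrays and 7.93 and 7.78 on the control arrays, against 4.34 to 4.41 for all genes. Salivary gland markers averaged 7.65 and 7.41 with PFJ and 7.20 and 7.69 in controls. Muscle markers averaged 6.65 and 7.20 with PFJ and 7.01 and 6.14 in controls. The testis, midgut and hemocyte lists averaged lower than these on each array. The purity of the tissue was not tested. In bulk tissue, fewer cells of a type and less RNA per cell cannot be told apart.

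None of the 38 transcripts passed limma's test of PFJ against control, fitted over all 13402 genes with Benjamini-Hochberg adjustment at 0.05. The test called 0 genes (0%) in all, and the smallest adjusted p was 1. Without adjustment, 373 genes had a p under 0.05. Of the 38 members, 3 were among them on the higher side with PFJ and 0 on the lower side, against 1.74% and 1.04% of all genes. The 3 were UQCR-14 of complex III, COX8 of complex IV and ATPsynG of complex V. With 2 arrays against 2, an exact two-sided permutation test cannot give a p below 0.333 for any gene.

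The differences were small, and the signs of several depended on single arrays of either diet. The log2 difference, PFJ minus control, was positive for 30 members and negative for 8, against 51.9% positive over all genes. With control replicate 2 left out the split was 19 positive and 19 negative, against 52.2% positive over all genes, and with control replicate 1 left out it was 35 to 3. With PFJ replicate 1 left out the split was 30 to 8, with signs turned in 8 members. With PFJ replicate 2 left out it was 29 to 9, with signs turned in 9 members. The difference ran from -0.28 for COX5BL to 0.83 for UQCR-Q, so no member differed by 2-fold. In 9 members each PFJ array exceeded each control array, and in 0 the reverse held, against 15.5% and 13.1% of all genes. All 9 were canonical subunits, and the diets overlapped in each of the 14 paralogs.

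**Figure D1:**
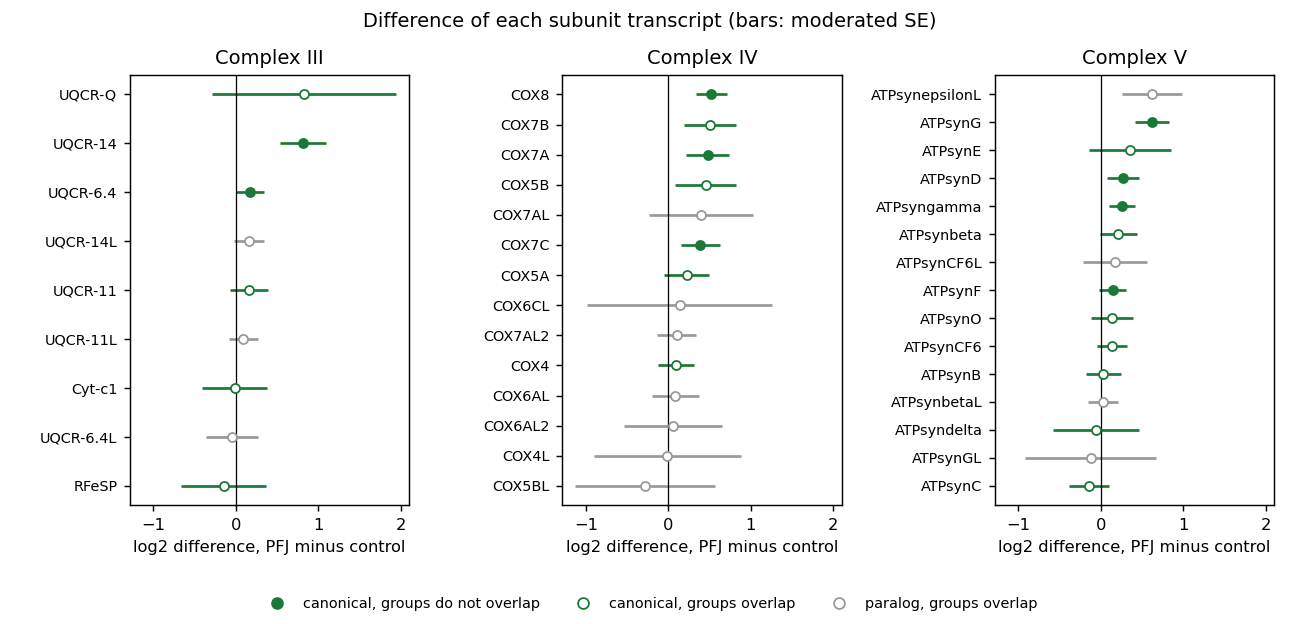
Log2 difference of each transcript, PFJ minus control (x axis), by complex, with the moderated SE as a bar; 2 arrays per diet. Filled points, 9 in all, mark transcripts in which each PFJ array exceeded each control array; open points mark overlapping diets, and grey points are paralogs.

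The complexes had similar median differences over all their members, while the canonical subunits alone, with all 4 arrays, were furthest from 0 in complex IV. The median log2 difference was 0.16 for complex III, 0.18 for complex IV and 0.14 for complex V, against 0.01 over all genes. In the marker lists of cell types it was 0.38 for fat body, 0.43 for muscle, 0.45 for midgut and 0.32 for hemocyte markers. For testis markers it was 0.20 and for salivary gland markers 0.0003. With 1 array left out, these medians lay between 0.21 and 0.51 for fat body and between 0.16 and 0.57 for hemocyte markers. They ran from 0.0014 to 0.97 for midgut and from -0.10 to 0.98 for muscle markers. For testis markers they ran from -0.81 to 1.20 and for salivary gland markers from -0.21 to 0.36. Among canonical subunits, with all 4 arrays, the median was 0.16 in complex III (6 genes, 4 positive), 0.45 in complex IV (7 genes, 7 positive) and 0.14 in complex V (11 genes, 9 positive). The complex IV subunits cype and levy, whose symbols lie outside the rule, differed by 0.44 and -0.12. The paralogs had 0.09 in complex III, 0.09 in complex IV and 0.10 in complex V, with 2 of 3, 5 of 7 and 3 of 4 positive. The difference between complexes was not tested, since genes are not replicates of a diet.

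These medians moved with single arrays. In complex IV the median of the canonical subunits lay between 0.20 without control replicate 2 and 0.57 without control replicate 1. Dropping PFJ replicate 1 gave 0.38 and dropping PFJ replicate 2 gave 0.24, with 6 or 7 of 7 genes positive in each of the 4 cases. In complex III the canonical median was -0.06 without control replicate 2 and 0.48 without PFJ replicate 1, the latter above the 0.38 of complex IV. In complex V it lay between 0.05 without control replicate 2 and 0.31 without PFJ replicate 1. The paralog median of complex IV moved to 0.85 without control replicate 1 and to -0.73 without control replicate 2, and that of complex V to 0.74 and -0.20. In complex III it moved less than the canonical median, between -0.026 and 0.28.

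**Figure D2:**
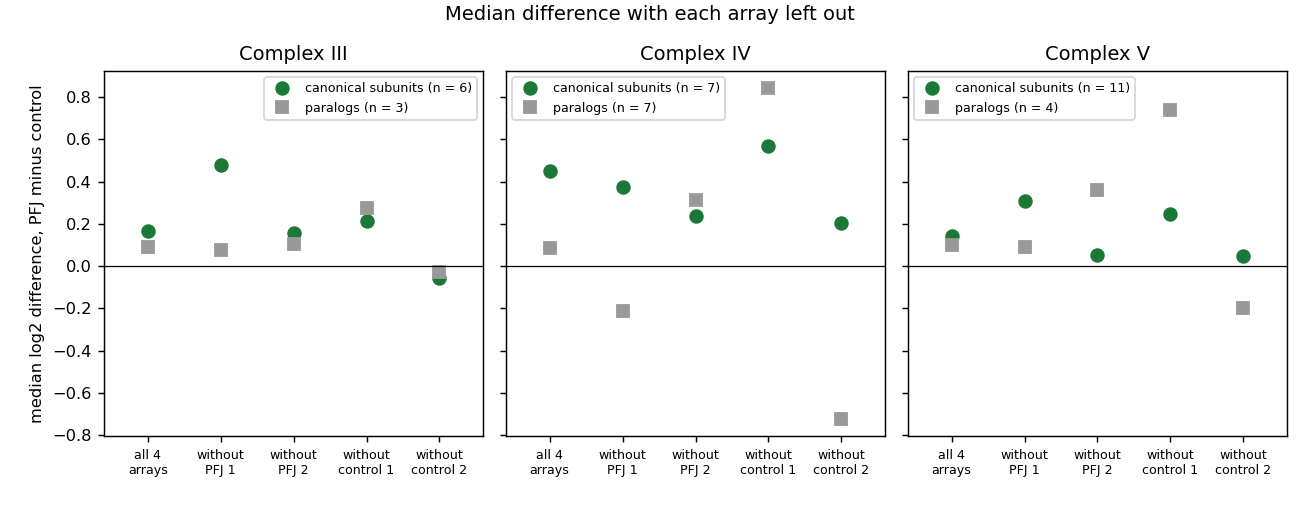
Median log2 difference, PFJ minus control (y axis), of the canonical subunits (green circles) and the paralogs (grey squares) of each complex, with all 4 arrays and with each array left out (x axis). In complex IV the canonical subunits lie between 0.20 and 0.57, and the paralogs between -0.73 and 0.85.

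Complex III was measured through its Rieske iron-sulfur protein, cytochrome c1 and several small accessory subunits. The core proteins UQCR-C1 and UQCR-C2 are not analysed here. RFeSP, the Rieske protein that takes electrons from ubiquinol, read 6.72 and 7.99 on the PFJ arrays and 7.78 and 7.22 on the control arrays. Cyt-c1, the heme protein that passes them to cytochrome c, read 6.71 and 7.67 with PFJ and 7.39 and 7.02 in controls. For both genes PFJ replicate 1 was lowest and PFJ replicate 2 highest, so both control arrays lay between them. Their log2 differences were -0.15 (SE 0.52) for RFeSP and -0.01 (SE 0.40) for Cyt-c1.

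UQCR-14, a small accessory subunit, read 5.84 and 5.73 with PFJ and 5.30 and 4.66 in controls. Both PFJ arrays were thus higher, and the controls were further apart than the PFJ arrays. Its means were 5.79 ± 0.08 with PFJ and 4.98 ± 0.46 in controls (SD, n = 2 each), a 1.75-fold difference. Limma gave a log2 difference of 0.81 (SE 0.28), an unadjusted p of 0.0440 and an adjusted p of 1. The gap between the control arrays, 0.65, was smaller than the difference between the diets. Without control replicate 2 the difference was 0.49, and without control replicate 1 it was 1.13.

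UQCR-6.4 also had both PFJ arrays above both controls, with 4.54 and 4.43 against 4.39 and 4.23, a log2 difference of 0.17 (SE 0.17). UQCR-11 overlapped, with 4.11 and 4.25 with PFJ and 3.79 and 4.26 in controls. It was the one member that was highest on control replicate 2.

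UQCR-Q had the largest gap between arrays of 1 diet among the 38 members. It read 7.01 and 6.49 with PFJ and 7.47 and 4.38 in controls. Control replicate 2 was 2.11 below the next lowest array, and the control arrays were 8.54-fold apart. The log2 difference of 0.83 therefore had an SE of 1.12 (limma, unadjusted p = 0.501). Leaving out control replicate 2 turned it to -0.72, and leaving out control replicate 1 took it to 2.37. No cause of this low reading was tested.

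The 3 paralogs of complex III varied less. UQCR-11L read 3.41 and 3.38 with PFJ and 3.42 and 3.19 in controls, UQCR-14L read 2.44 and 2.30 with PFJ and 2.32 and 2.09 in controls, and UQCR-6.4L read 2.67 and 2.51 with PFJ and 3.02 and 2.26 in controls. Each was lowest on control replicate 2, and their log2 differences lay between -0.05 and 0.16. In the RefSeq gene order, UQCR-14L lies next to Mst98Cb, a gene of the testis list.

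**Figure D3:**
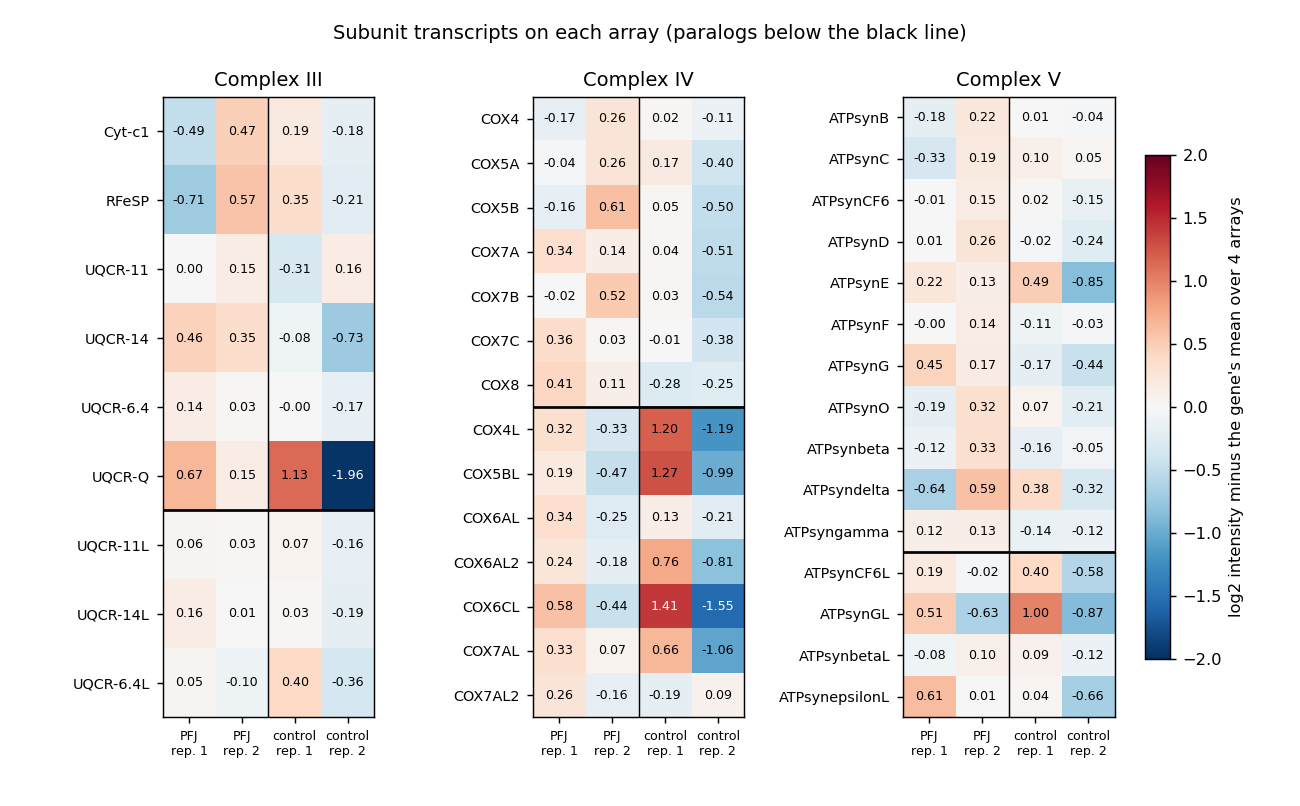
Log2 intensity minus the gene's mean over the 4 arrays, for each member (rows) on each array (columns), with paralogs below the black line. Control replicate 2 is the lowest array in 25 of 38 rows, with UQCR-Q at -1.96, and the paralogs COX4L, COX5BL and COX6CL are highest on control replicate 1.

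Complex IV subunits encoded in the nucleus surround the catalytic core, which the mitochondrial genome encodes. COX8 read 7.29 and 6.99 with PFJ and 6.60 and 6.63 in controls. Its control arrays were only 0.03 apart, and the lower PFJ array stood above both. The means were 7.14 ± 0.21 with PFJ and 6.62 ± 0.02 in controls (SD, n = 2 each), a 1.44-fold difference. Limma gave a log2 difference of 0.52 (SE 0.19), an unadjusted p of 0.0496 and an adjusted p of 1.

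COX7A and COX7C were the other complex IV genes whose diets did not overlap. COX7A read 6.55 and 6.35 with PFJ and 6.25 and 5.70 in controls, a log2 difference of 0.48 (SE 0.26). COX7C read 4.28 and 3.96 with PFJ and 3.91 and 3.55 in controls, a difference of 0.39 (SE 0.23). In both, PFJ replicate 2 lay just above control replicate 1, and control replicate 2 was the lowest array.

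COX7B and COX5B had differences of like size with overlapping arrays. COX7B read 6.43 and 6.96 with PFJ and 6.48 and 5.90 in controls, a difference of 0.51 (SE 0.32). COX5B, a zinc-binding subunit, read 6.91 and 7.67 with PFJ and 7.11 and 6.57 in controls, a difference of 0.45 (SE 0.37). In each, PFJ replicate 2 was the highest array and control replicate 2 the lowest. COX5A read 2.67 and 2.97 with PFJ and 2.88 and 2.31 in controls. COX4 read 4.68 and 5.11 with PFJ and 4.86 and 4.73 in controls, which left a difference of 0.09 (SE 0.22). COX6B shares its row with CG18809 and is no member; that row read 7.40 and 7.41 with PFJ and 7.35 and 7.17 in controls.

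The complex IV paralogs showed wide gaps within the controls. COX4L read 4.43 and 3.78 with PFJ and 5.31 and 2.93 in controls, so the control arrays were 5.22-fold apart around both PFJ arrays. COX5BL read 4.50 and 3.84 with PFJ and 5.58 and 3.32 in controls, a 4.78-fold gap within controls. COX6CL read 4.13 and 3.11 with PFJ and 4.97 and 2.00 in controls, a 7.82-fold gap. In all 3, the arrays ran from high to low as control replicate 1, PFJ replicate 1, PFJ replicate 2 and control replicate 2. The log2 differences between diets were -0.01 (SE 0.89), -0.28 (SE 0.85) and 0.14 (SE 1.12), within the spread of the controls.

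COX6AL2 and COX7AL had the same order. COX6AL2 read 4.30 and 3.89 with PFJ and 4.82 and 3.25 in controls, and COX7AL read 3.11 and 2.85 with PFJ and 3.44 and 1.72 in controls. The last pair of this complex had another order. COX6AL read 3.18 and 2.59 with PFJ and 2.97 and 2.63 in controls, and COX7AL2 read 2.30 and 1.88 with PFJ and 1.85 and 2.13 in controls. These were the only paralogs that were not lowest on control replicate 2.

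Complex V consists of a catalytic head, a central stalk and rotor that turn, a peripheral stalk that holds the head, and small membrane subunits. In the head and central stalk, ATPsynbeta, which carries the catalytic sites, read 8.60 and 9.05 with PFJ and 8.56 and 8.67 in controls. Its diets overlapped at a difference of 0.21 (SE 0.22). ATPsyngamma, the shaft of the central stalk, read 2.69 and 2.70 with PFJ and 2.43 and 2.45 in controls. Arrays of 1 diet were at most 0.02 apart, which no other member matched on both diets, and limma gave a difference of 0.26 (SE 0.16, unadjusted p = 0.175). These readings were dim, the lowest value on any array being 1.36, and the milder filter on dim genes described below removed this gene.

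ATPsyndelta, also of the central stalk, read 9.30 and 10.53 with PFJ and 10.32 and 9.62 in controls. The PFJ arrays were 2.34-fold apart. They enclosed both controls, as they did in RFeSP, Cyt-c1, COX4, ATPsynB and ATPsynC. ATPsynC, the subunit of the rotor ring, read 6.29 and 6.82 with PFJ and 6.72 and 6.67 in controls, a difference of -0.14 (SE 0.24).

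Of the peripheral stalk, ATPsynD alone had diets that did not overlap. It read 5.44 and 5.70 with PFJ and 5.42 and 5.19 in controls, a difference of 0.27 (SE 0.20). ATPsynO, the counterpart of the oligomycin-sensitivity protein, read 4.00 and 4.50 with PFJ and 4.25 and 3.97 in controls. ATPsynB read 6.18 and 6.58 with PFJ and 6.37 and 6.32 in controls. ATPsynCF6 read 3.80 and 3.96 with PFJ and 3.83 and 3.66 in controls. For these 3 genes PFJ replicate 2 was the highest array, and their differences lay between 0.03 and 0.14.

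The membrane subunits e, f and g differed among themselves. ATPsynG read 3.49 and 3.21 with PFJ and 2.87 and 2.60 in controls, with both PFJ arrays above both controls. Its means were 3.35 ± 0.20 with PFJ and 2.73 ± 0.19 in controls (SD, n = 2 each), a 1.53-fold difference. Limma gave 0.62 (SE 0.21), with an unadjusted p of 0.0410, the smallest of the 38, and an adjusted p of 1. ATPsynF read 2.78 and 2.92 with PFJ and 2.67 and 2.74 in controls, also without overlap, at a difference of 0.14 (SE 0.17). Like ATPsyngamma, ATPsynF was dim and was removed by the milder filter. ATPsynE read 5.66 and 5.57 with PFJ and 5.93 and 4.59 in controls. Like UQCR-Q it stood low on control replicate 2, 0.98 below the next array, and its diets overlapped.

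Among the complex V paralogs, ATPsynGL read 4.38 and 3.25 with PFJ and 4.87 and 3.0 in controls, and ATPsynCF6L read 3.55 and 3.34 with PFJ and 3.76 and 2.78 in controls. Both ran in the order seen in COX4L. ATPsynepsilonL read 4.19 and 3.58 with PFJ and 3.62 and 2.91 in controls, a difference of 0.62 (SE 0.36). ATPsynbetaL read 3.27 and 3.45 with PFJ and 3.44 and 3.23 in controls and differed by 0.02 (SE 0.18).

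The arrays thus placed canonical subunits and paralogs in different orders. Relative to each gene's mean over the 4 arrays, the 24 canonical subunits had a median of -0.01 and 0.20 on PFJ replicates 1 and 2 and of 0.02 and -0.23 on control replicates 1 and 2. The 14 paralogs had 0.25 and -0.13 on the PFJ arrays and 0.40 and -0.62 on the control arrays. For all genes these medians lay between -0.02 and 0.03.

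Both classes were often lowest on control replicate 2. It was the lowest array for 13 of 24 canonical subunits and 12 of 14 paralogs, against 29.0% of all genes. They parted on the highest array, which was PFJ replicate 2 for 15 canonical subunits and 1 paralog, against 18.9% of all genes. PFJ replicate 1 was the lowest array for 6 canonical subunits and 0 paralogs, against 24.9% of all genes. The full order from control replicate 1 over PFJ replicates 1 and 2 down to control replicate 2 was found in 9 of 14 paralogs, in 2 of 24 canonical subunits and in 9.10% of all genes. The 2 canonical genes were UQCR-Q and ATPsynE.

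Testis transcripts had this order too. Of 34 listed testis markers 29 were measured, none of them a member. That order was found in 20 of them, and control replicate 2 was lowest in 26. Their summed linear intensity was 1834 and 963 on the PFJ arrays and 2682 and 303 on the control arrays. That of the paralogs was 187 and 132 on the PFJ arrays and 259 and 94.9 on the control arrays. The markers with the widest spread were the sperm chromatin gene Mst77F, Mst84Da and the testis tubulin gene betaTub85D. Mst77F read 8.51 and 7.70 with PFJ and 9.13 and 3.21 in controls. Since RMA values have no 0, no marker can be listed as absent. The part of testis RNA in the paralogs' values was not tested.

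A highest median on PFJ replicate 2 was found in the canonical subunits and in several marker lists. Relative to each gene's mean, the median on that array was 0.49 for muscle, 0.43 for fat body, 0.29 for hemocyte and 0.64 for midgut markers. PFJ replicate 2 was the highest array for 7 of 14, 10 of 13, 9 of 13 and 30 of 45 of them. The lists differed on the lowest array, which was control replicate 2 for 9 of 14 muscle and 8 of 13 fat body markers, and control replicate 1 for 6 of 13 hemocyte and 33 of 45 midgut markers.

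The order from PFJ replicate 2 over control replicate 1 and PFJ replicate 1 down to control replicate 2 was found in 5 of 24 canonical subunits and in 7 of the 14 measured muscle markers, of 20 listed, against 2.46% of all genes. The 5 were COX5A, COX5B, COX7B, ATPsynCF6 and ATPsynO. In 6 other canonical subunits, RFeSP, Cyt-c1, COX4, ATPsynB, ATPsynC and ATPsyndelta, PFJ replicate 2 was also highest but PFJ replicate 1 was lowest. PFJ replicate 1 was the lowest array in 2 of the 14 muscle markers and in 24.9% of all genes. The summed intensity of the muscle markers was 2416 and 4583 on the PFJ arrays and 3717 and 1930 on the control arrays. That of the canonical subunits was 2262 and 3612 on the PFJ arrays and 3092 and 2194 on the control arrays. A sum of linear intensities weighs bright genes most, here ATPsyndelta and then ATPsynbeta. ATPsyndelta read 9.30 and 10.53 with PFJ and 10.32 and 9.62 in controls. The muscle gene with the widest spread was Mlc2, a myosin light chain gene, with 8.49 and 9.63 with PFJ and 8.76 and 7.18 in controls. The part of RNA from muscle, or from any of the other listed cell types, in the canonical subunits' values was not tested.

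**Figure D4:**
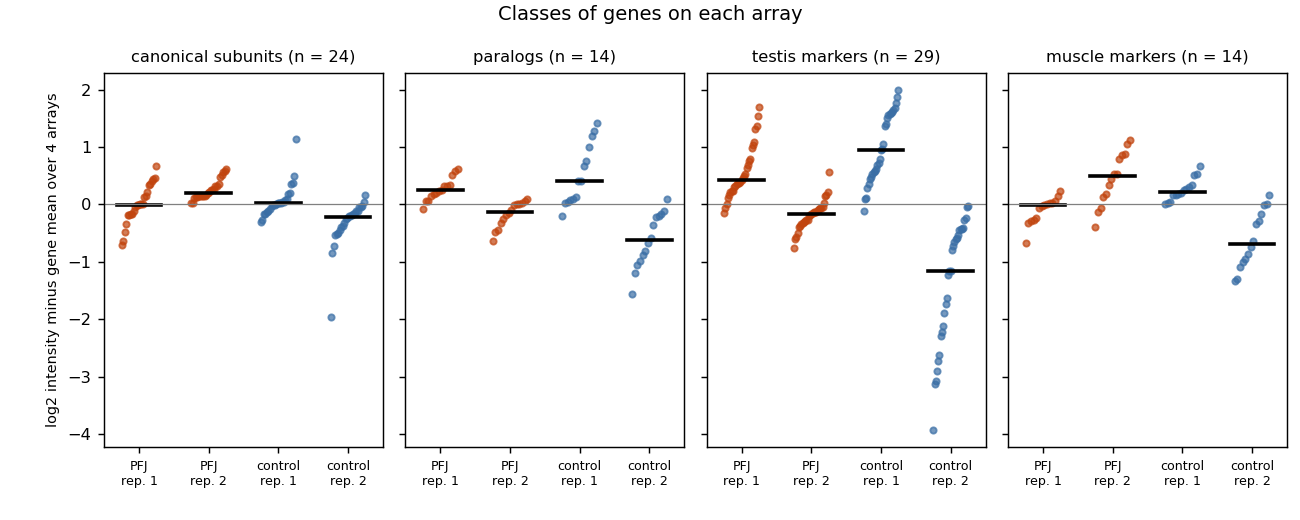
Log2 intensity minus the gene's mean over the 4 arrays (y axis) on each array (x axis), for canonical subunits, paralogs, testis markers and muscle markers; each point is a gene and the black bar is the median. Paralogs and testis markers are highest on control replicate 1, canonical subunits and muscle markers on PFJ replicate 2, and all 4 classes are lowest on control replicate 2.

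Each paralog was also set beside the canonical subunit it copies. The 14 pairs include canonical genes outside the rule, since levy (COX6A), cype (COX6C) and sun (epsilon) carry other symbols, and COX7A and levy each stand in 2 pairs. On the PFJ arrays, replicate 1 minus replicate 2 was larger in the paralog than in its canonical gene in 14 of 14 pairs. On the control arrays it was so in 11 of 14 pairs. The exceptions were COX7AL2, COX6AL and UQCR-14L.

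COX5B and COX5BL, which lie either side of Trmt6 in the RefSeq gene order, moved in opposite directions between the PFJ arrays. COX5B was 0.77 lower on PFJ replicate 1 than on PFJ replicate 2, and COX5BL was 0.66 higher. COX4 was 0.43 lower on PFJ replicate 1, and COX4L was 0.65 higher. ATPsynbeta and its copy both read lower on PFJ replicate 1, by 0.44 and 0.18.

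**Figure D5:**
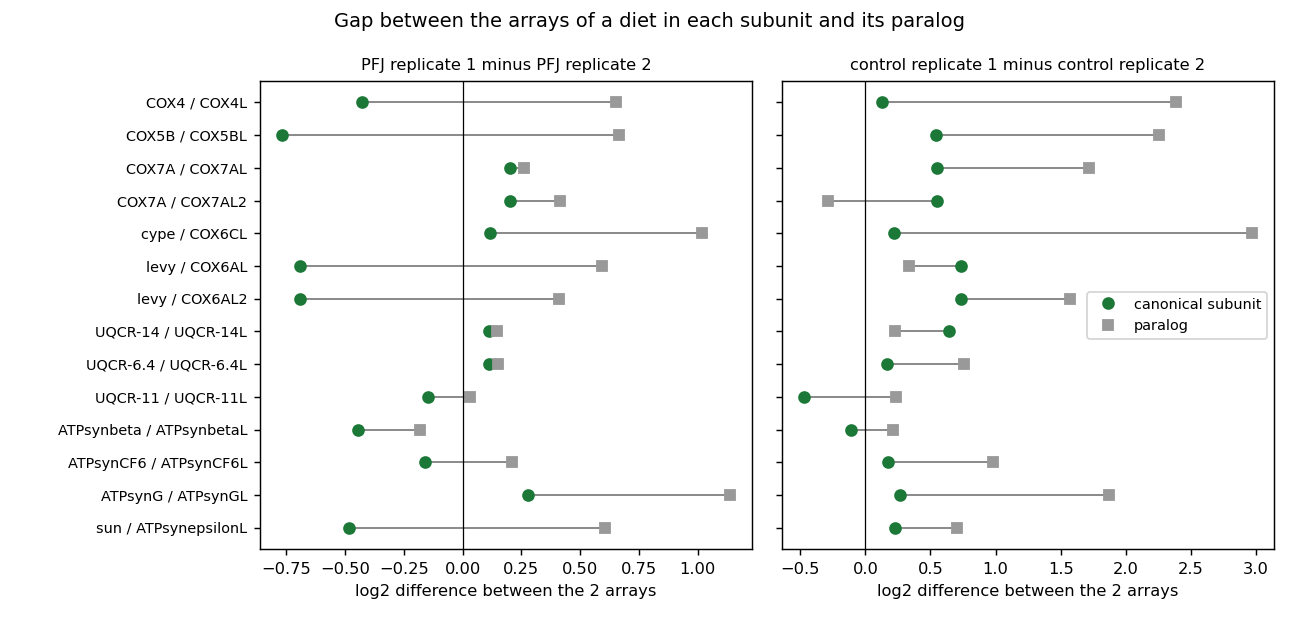
Log2 gap between the 2 arrays of each diet (x axis; left panel PFJ, right panel control) in each canonical subunit (green circle) and its paralog (grey square), 1 pair a row. The paralog lies to the right of its canonical gene in 14 of 14 pairs on the PFJ arrays and in 11 of 14 on the control arrays.

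Gaps of 2-fold or more within a diet were found in both classes. The PFJ arrays were at least 2-fold apart in 4 members, the canonical RFeSP and ATPsyndelta and the paralogs COX6CL and ATPsynGL, against 5.64% of all genes. The control arrays were that far apart in 8 members, against 9.88% of all genes. These were UQCR-Q and ATPsynE with the paralogs COX4L, COX5BL, COX6AL2, COX6CL, COX7AL and ATPsynGL.

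Some subunits of these complexes carry symbols that the rule does not reach. Their list held 15 symbols, 7 of them measured, with a median difference of 0.21 and 0 at an unadjusted p under 0.05 by limma. The median was 0.12 without control replicate 2 and 0.35 without control replicate 1. The catalytic head subunit alpha, blw, read 8.05 and 8.96 with PFJ and 8.57 and 8.72 in controls, a difference of -0.14 (SE 0.36). PFJ replicate 1 was lowest and PFJ replicate 2 highest, as in ATPsyndelta. The complex IV subunits levy and cype differed by -0.12 (SE 0.39) and 0.44 (SE 0.18), and in cype the diets did not overlap. The complex III subunit ox differed by 0.31 (SE 0.21) without overlap, and sun of the central stalk by 0.32 (SE 0.25) with overlap. CG41378 differed by 0.21 without overlap, and the paralog Cyt-c1L by 0.16 with overlap.

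Complex II, which feeds electrons from succinate, had 5 of 6 listed genes measured, all with positive differences from 0.0076 upward and a median of 0.16. The median was 0.010 without PFJ replicate 2 and 0.45 without PFJ replicate 1. SdhB, SdhC and SdhD differed by 0.16, 0.20 and 0.13. The paralog SdhBL read 6.87 and 5.33 with PFJ and 6.91 and 2.84 in controls, in the same order of arrays as COX4L. In the list of cytochrome c and other electron donors to these complexes, 3 of 7 genes were measured, and the cytochrome c genes are not analysed here. Dhod, the dihydroorotate dehydrogenase gene of pyrimidine synthesis, differed by 0.43 (SE 0.26). The glycerophosphate oxidase genes Gpo3 and Gpo2 differed by -0.27 (SE 0.31) and -0.04 (SE 0.19).

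Assembly factors and carriers showed no shared direction. The 13 measured assembly factors of 32 listed had a median of 0.04, with 7 positive, and the median lay between -0.10 and 0.17 with 1 array left out. Cox17, a copper chaperone for complex IV, read 6.58 and 5.52 with PFJ and 6.02 and 5.47 in controls. Cox11, another copper delivery factor, had both PFJ arrays below both controls, at 3.58 and 3.76 against 3.79 and 4.09. Coa8 had both above, at 3.46 and 3.27 against 3.13 and 3.19. Of the 13, 2 had both PFJ arrays above and 2 had both below both controls, against 15.5% and 13.1% of all genes. Of 14 genes for the ATP synthase inhibitor and carriers, 12 were measured, with a median of 0.05, which became -0.014 when PFJ replicate 1 was dropped and 0.23 when control replicate 1 was. Of the 12, 2 had both PFJ arrays above both controls, Bmcp at a difference of 0.35 (SE 0.17) and CG34423 at 0.17 (SE 0.18). The channel gene porin alone had both below. Porin read 7.53 and 8.09 with PFJ and 8.41 and 8.36 in controls, a difference of -0.57 (SE 0.25). Its paralog Porin2, named after its values were seen, read 4.34 and 3.83 with PFJ and 5.70 and 2.65 in controls, in the order of COX4L.

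Among regulators of mitochondrial biogenesis, control replicate 2 was the highest array for most. Of 13 listed genes 9 were measured, 2 with positive and 7 with negative differences, at a median of -0.12, against 6443 negative of 13402 over all genes. Control replicate 2 was highest in 7 of the 9, against 4060 of 13402 over all genes. Without control replicate 2 the median was -0.029, and with any other array left out it lay between -0.24 and -0.22. Ets97D, the fly counterpart of the GA-binding protein that drives respiratory genes in mammals, read 4.46 and 4.70 with PFJ and 4.95 and 5.04 in controls, a difference of -0.41 (SE 0.18). TFAM, which packages and transcribes mitochondrial DNA, read 5.58 and 5.59 with PFJ and 5.80 and 5.80 in controls, a difference of -0.22 (SE 0.16). Hcf, a co-regulator of transcription, differed by -0.35 (SE 0.17). In these 3, and in no other of the 9, the PFJ arrays both lay below both controls, against 13.1% of all genes. In none of the 6 pathway lists outside the rule was a gene at an unadjusted p under 0.05 by limma, so no gene of them passed adjustment.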

How the data were processed

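Each of the 4 arrays gave 1 value per gene. The deposited log2 intensities came from RMA in Affymetrix Expression Console 1.4.0.38, per the submitters' processing notes. A range of 1.36 to 12.7 showed the log2 scale. The genome build is not given in the sources used here. RMA gives the arrays near-equal distributions, which hides changes common to most genes. No detection call was made, and precision is limited by the number of arrays.

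Of 16322 rows, 13441 had 1 gene symbol in the platform table, 555 several and 2326 none. The row with the highest mean was kept for 37 genes with several rows, which left 13402 genes. All 38 members matched a RefSeq gene record with the same symbol (assembly Release 6 plus ISO1 MT, used for names and gene order). PFJ was compared with control in R 4.3.3 with limma 3.58.1 (lmFit, eBayes), two-sided, with no covariate, over all genes, and the procedure was tested on simulated data. Gene lists are described by counts and medians. Alternatives were another normalization, filters on dim genes, other row rules, other variance settings, a replicate block and each array left out. Every member could be named, up to 4 genes of a pathway list by the smallest p, and up to 3 of a marker list by spread. The members and lists were chosen with earlier results of these data known.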

Additional observations from a re-analysis of the deposited data

How the results depend on the processing

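Of the genes tested, 0 passed adjustment in each of the 12 refits, and no member did. The count of genes at an unadjusted p under 0.05 by limma was 373 of 13402, and 192 of the 6701 genes left by the stricter filter on dim genes. Leaving out 1 array gave 304 to 945 genes, among them 566 when PFJ replicate 2 was dropped and 945 when control replicate 1 was. The 3 members at that p became 0 with the milder filter, although all 3 were present with differences as before (0.81, 0.52 and 0.62). They became 0 with the stricter filter too, where UQCR-14 and COX8 were present, and 1 (ATPsynG) with trend and robust variances. With quantile normalization repeated, with median centring and with every array row tested they became 2, UQCR-14 and ATPsynG, without COX8. With 1 array left out, the lone array of that diet being assumed to vary like the other diet, 0 to 7 members were higher and 0 to 2 lower. The 7 without control replicate 1 were UQCR-14, UQCR-Q, ATPsynE, COX7A, COX4L, COX6CL and COX7AL, and the 2 lower without control replicate 2 were COX4L and COX5BL. The 9 members above both controls became 7 with the milder filter, where 30 members were present and ATPsyngamma and ATPsynF were not. They became 5 with the stricter filter, where 21 members were present, and this count was not run with an array left out. Leaving out 1 array moved the median difference of complex III between -0.026 and 0.26, of complex IV between -0.017 and 0.74 and of complex V between 0.01 and 0.27. The canonical subunits alone gave 0.45 in complex IV. Adding ox, levy, cype, blw and sun was chosen after seeing the data and left the medians at 0.16, 0.18 and 0.14. Replicate numbers are shared between the diets but pair nothing in the labels; same-numbered arrays deviated together across genes (r = 0.337). With the replicate block, 547 genes and 3 members, UQCR-14, ATPsynG and ATPsynepsilonL, were at an unadjusted p under 0.05, and 0 passed adjustment. Signs turned in 11 members without control replicate 2, 9 without control replicate 1, 8 when PFJ replicate 1 was dropped, 9 when PFJ replicate 2 was, 5 with quantile normalization repeated and 2 with median centring. Median centring moved the positive share of all genes to 44.1%, repeated quantile normalization moved it to 45.6%, and the members' shares were then 73.7% and 76.3%. The planned promoter motifs and protein identities were not run. The causes of these changes were not tested.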
